A study of Saccharomyces cerevisiae with 15 samples.

Results

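The genes described here are the 60 genes for the cytosolic large-subunit ribosomal proteins RPL1A to RPL34B of budding yeast, Saccharomyces cerevisiae, taken by systematic name from a table of 6600 gene identifiers. They encode 34 proteins: 52 genes form 26 pairs of duplicated copies, named A and B, and 8 genes (RPL3, RPL5, RPL10, RPL25, RPL28, RPL29, RPL30 and RPL32) are the only copy. All 60 passed the filter on low values, and the lowest, RPL15B, averaged 399.9 normalized counts over the libraries. The study compared the transcriptome of yeast exposed to the rare earth metals lanthanum (La), a light one, or ytterbium (Yb), a heavy one. Each of 5 groups held 3 libraries: cells given La for 1 h, at 50 µM (La EC10) or 160 µM (La EC50), cells given Yb for 1 h, at 6 µM (Yb EC10) or 8 µM (Yb EC50), and untreated cells (Ctrl). EC10 and EC50 are the labels' names for a lower and a higher effective concentration of each metal. All groups shared the laboratory strain BY4741 and a yeast nitrogen base in which β-glycerophosphate, an organic phosphate, was present, so every value is from 1 strain in 1 medium. Whether the 3 libraries of 1 group are separate cultures is not in the labels; p-values therefore rest on a spread that could be technical.

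The cytosolic ribosome of yeast is built from ribosomal RNA and many proteins that are made in equal numbers, and in growing cells their messenger RNAs are among the most abundant. The genes are transcribed together: Rap1, Fhl1 and Ifh1 bind at most of their promoters, the high-mobility-group protein Hmo1 binds at many, and the kinases TORC1 and Sch9 couple the group to growth. Most proteins have a pair of gene copies left by an ancient duplication of the genome, and the copies differ more in their flanking sequences and introns than in the protein. Stress usually lowers these messenger RNAs for a time.

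Each library gave 5629666 to 7183175 reads, and a normalized count is a number of reads divided by the library's size factor, so that 1 read was worth 0.901 to 1.22 normalized counts. The strain's markers stood as labelled: URA3 and MET17, deleted in BY4741, had no read in any library, LEU2, also deleted, had 1 read in all, and the mating-type-a gene STE2 had at least 3239 normalized counts in every library against at most 79.6 of the alpha gene STE3. Over the 5 groups, 57 of the 60 genes differed (limma F test, adjusted p under 0.05), where 43.1% of the 5567 genes tested did. The 3 others were RPL5, RPL8B and RPL12B. Without Ctrl library 2 the F test called 30 of the 60.

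How far the copies can be told apart by sequence differs between pairs, which bears on the values given for a single copy. The proteins of 7 pairs, among them RPL1, RPL2, RPL12, RPL19, RPL20 and RPL23, were identical, and the lowest protein identity was 84.4%, for RPL22. Of all stretches of 50 bases of the coding sequences, 81.0% were shared between RPL1A and RPL1B, 72.7% in RPL4, 60.9% in RPL11, 56.9% in RPL7 and 42.1% in RPL14, so reads from these pairs may have been divided or dropped in the authors' counting, and their single values are uncertain. In RPL6, RPL16, RPL17, RPL22, RPL27, RPL31 and RPL33 no stretch of that length was shared. The stretches of coding sequence below, from RefSeq build R64 and read 5′ to 3′ (all coordinates in the text are of this build, 1-based), show the most different part of 3 pairs whose copies moved apart at La EC50. Bases in capitals differ between the copies. Positions count from the start codon, 58 to 105 in RPL7, 382 to 429 in RPL8 and 526 to 573 in RPL9.
RPL7A: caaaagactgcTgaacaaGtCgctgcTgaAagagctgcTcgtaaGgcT
RPL7B: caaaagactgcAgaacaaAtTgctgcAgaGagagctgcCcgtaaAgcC
RPL8A: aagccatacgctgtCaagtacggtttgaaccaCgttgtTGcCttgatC
RPL8B: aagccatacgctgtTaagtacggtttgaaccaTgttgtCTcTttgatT
RPL9A: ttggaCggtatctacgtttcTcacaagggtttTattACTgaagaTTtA
RPL9B: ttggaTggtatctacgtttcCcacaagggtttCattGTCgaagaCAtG

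In all 4 exposures the group of genes as a whole was lower than in untreated cells. Together the 60 genes took 8.58% ± 0.508 of the reads at La EC10, 8.10% ± 0.147 at La EC50, 8.88% ± 0.779 at Yb EC10 and 8.25% ± 0.487 at Yb EC50, against a range of 9.65% to 10.2% in Ctrl (exposed groups with SD, n = 3 each). The exposed libraries of every group but Yb EC10 lay below the lowest Ctrl library, and 1 Yb EC10 library reached 9.77%. Across all tested genes the median log2 change lay near 0 in each comparison, between -0.02 and 0.01, while that of the 60 genes was -0.29 (La EC10), -0.39 (La EC50), -0.24 (Yb EC10) and -0.39 (Yb EC50). These changes are on the scale of log2(normalized count + 1). In bulk libraries a lower level in each cell and fewer cells that express a gene cannot be told apart.

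**Figure D1:**
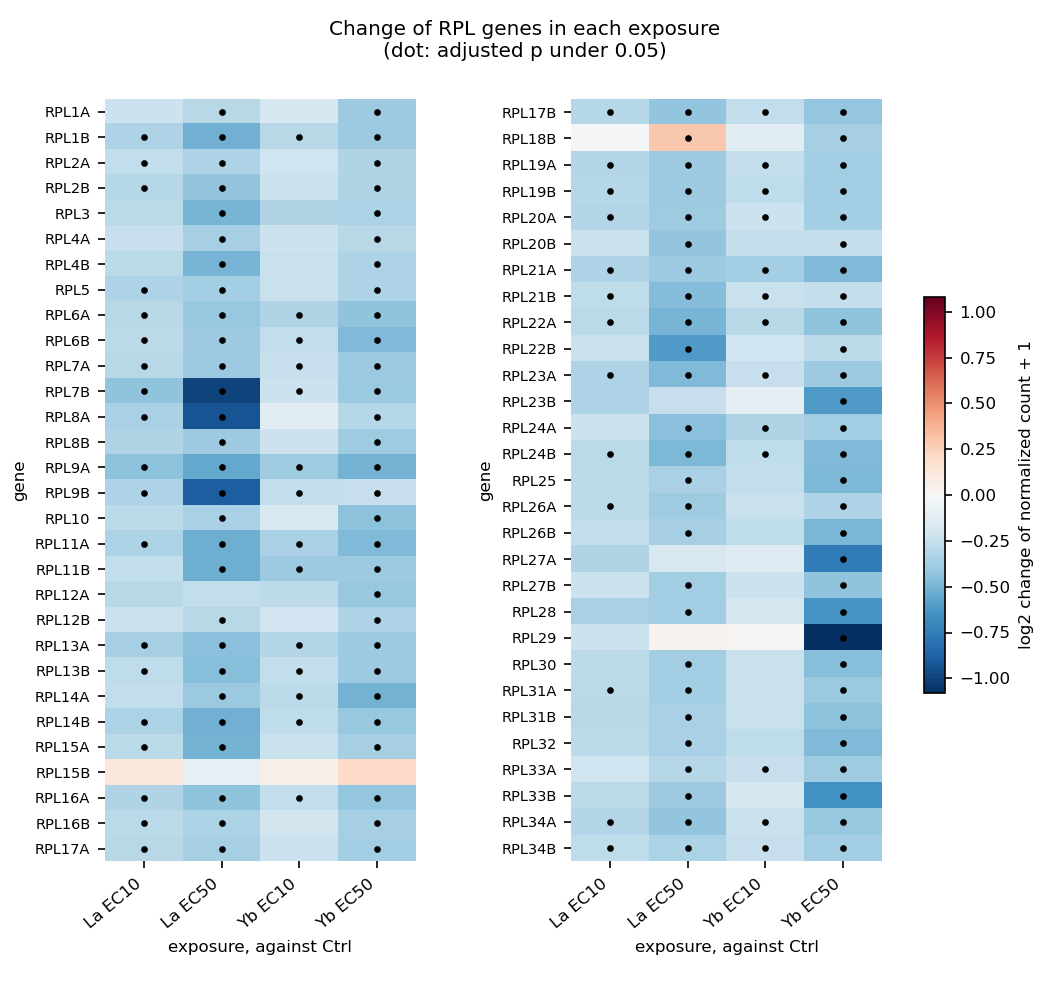
Log2 change of the normalized count (plus 1) of the RPL genes described here (rows) in each exposure against Ctrl (columns), with blue for lower and red for higher in exposed cells and a dot for an adjusted p under 0.05. RPL7B, RPL8A and RPL9B are darkest at La EC50 and RPL29 at Yb EC50, while RPL18B is the only gene with a dot on red, at La EC50; with quantile-normalized values RPL2B, RPL3, RPL4A, RPL5, RPL15A, RPL20B and RPL21B, blue at Yb EC50, turned slightly positive.

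The size of the fall depended on how libraries were scaled, and its direction as a group did not. With totals made equal, the median of all tested genes moved to 0.11 at both EC50 doses, and that of the 60 genes to -0.29 at La EC50 and -0.26 at Yb EC50. That scaling also moved the share of higher genes among all calls to 74.2% at La EC50 and 78.8% at Yb EC50, against 49.3% and 50.5% as deposited, and to 71.2% at La EC10 and 70.1% at Yb EC10, against 50.3% and 52.0% as deposited. With quantile-normalized values, which give every library the same set of levels, the median of the 60 genes was -0.13 (La EC10), -0.19 (La EC50), -0.10 (Yb EC10) and -0.12 (Yb EC50). The median of the 60 genes less that of all tested genes was then -0.12 (La EC10), -0.17 (La EC50), -0.06 (Yb EC10) and -0.06 (Yb EC50), against -0.30, -0.41, -0.25 and -0.37 with the values as deposited.

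At La EC10, 33 of the 60 genes fell and none rose, where 10.1% of all tested genes were called lower, 10.2% higher and 20.3% in either direction. RPL9A (YGL147C, chrVII:227754-228329), a protein at the base of a stalk of the large subunit, had 8450.2, 10869 and 8729.5 normalized counts at La EC10, against 12087, 13249.5 and 12488 in Ctrl. Its log2 change of -0.44 ± 0.11 (adjusted p = 0.0109; errors of changes are SE throughout) was the largest fall. RPL7B (YPL198W, chrXVI:173152-174702), which binds the large ribosomal RNA, had 2952, 2965 and 2876 at La EC10, against 3901, 4182 and 3801 in Ctrl. It fell by 0.43 ± 0.07 (adjusted p = 0.000478), with the exposed libraries close together and all below Ctrl. RPL13A (YDL082W, chrIV:308424-309388), with 4572, 5362 and 4357 at La EC10 against 5837, 6240.5 and 6139.9 in Ctrl, fell by 0.36, and RPL8A (YHL033C, chrVIII:35255-36025), with 4243, 4753 and 4078 against 5376, 5562 and 5711, fell by 0.35. The genes nearest to or above 0 at La EC10 were RPL18B, with 5122, 4550.2 and 5147 at La EC10 against 5318, 5339 and 4429 in Ctrl (-0.02, or 0.051 with equal totals and 0.080 with quantiles), and RPL15B (0.13), and neither was called. For all 33 called genes the ranges of the groups did not overlap. A call already favours genes with separated libraries, and the share over all genes was not computed. This count and those for the other exposures therefore describe the called genes and add no support. The count rested on single libraries: it was 5 without La EC10 library 13, 3 without library 15, and 21, 3 and 18 without Ctrl library 1, 2 and 3, and of the named genes only RPL7B was called in every case. RPL9A lost its call without La EC10 library 13, library 15 or Ctrl library 2, at -0.37 to -0.40, and RPL13A and RPL8A also without Ctrl library 3, at -0.35 and -0.33.

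At Yb EC10, 27 genes fell and none rose, where 14% of all tested genes were called lower, 15.2% higher and 29.3% in either direction. RPL11B (YGR085C, chrVII:648383-648907), which with RPL5 binds the smallest ribosomal RNA, had 5745, 7118 and 5663 normalized counts at Yb EC10, against 7933, 8782 and 7502 in Ctrl, a fall by 0.39 ± 0.10 (adjusted p = 0.0109). Its copy RPL11A (YPR102C, chrXVI:731224-731748), with 9673, 11981 and 9994 at Yb EC10 against 13104, 14322 and 12818 in Ctrl, fell by 0.35. RPL9A, with 9038, 11428 and 8689 at Yb EC10 and the Ctrl values above, fell by 0.39. RPL21A (YBR191W, chrII:606270-607140) fell by 0.37 ± 0.09 (adjusted p = 0.00519), from libraries with 3611, 4464 and 3759.8 at Yb EC10 against 5053, 5263 and 4897 in Ctrl. RPL29 (0.02, 95% interval -0.52 to 0.55, by a normal approximation) and RPL15B (0.06) were nearest to or above 0 and were not called. In the 4 genes that fell most Yb EC10 library 8 was the highest exposed library, still below every Ctrl library. For 20 of the 27 called genes the ranges of the groups did not overlap, again without a share over all genes. Without library 8 the count of called genes was 51, and it was 4 without library 7, 2 without library 9, and 17, 2 and 17 without Ctrl library 1, 2 and 3. RPL21A kept its call in each of these, whereas RPL11B, RPL9A and RPL11A lost theirs without Yb EC10 library 9 or Ctrl library 2, at -0.30 to -0.35, and RPL9A and RPL11A also without library 7. The 60 genes' median deviation from their mean was 0.21 in library 8, against -0.13 and -0.03 in the other 2.

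At La EC50, 54 genes fell and 1 rose, where 13% of all tested genes were called lower, 12.6% higher and 25.6% in either direction. The genes with the largest falls were single copies of 4 pairs, each the less abundant copy of its pair in Ctrl. Of the other less abundant copies, RPL18B rose, and RPL12A and RPL15B were not called. RPL7B had 1940.5, 1933 and 2046 normalized counts at La EC50, against 3901, 4182 and 3801 in Ctrl. The exposed libraries lay close together and far below Ctrl, with a log2 change of -1.0 ± 0.07 (adjusted p = 4.78e-08). RPL8A, a protein needed for maturation of the large ribosomal RNA, had 2744, 2872 and 3115 at La EC50, against 5376, 5562 and 5711 in Ctrl, a fall by 0.93 ± 0.10 (adjusted p = 4.89e-06). RPL9B (YNL067W, chrXIV:499681-500256) had 3752, 3432 and 3426 at La EC50, against 6488, 7169 and 6060.3 in Ctrl, a fall by 0.89 ± 0.09 (adjusted p = 2.02e-06). RPL22B (YFL034C-A, chrVI:64243-64932), whose protein is not essential and binds the intron of this transcript, had 1562, 1480.1 and 1505 at La EC50, against 2443, 2462 and 2075 in Ctrl, a fall by 0.61 ± 0.09 (adjusted p = 7.86e-05). The other copies fell too, by 0.40 in RPL7A (10049.5, 10012 and 10348 at La EC50 against 13005, 13418 and 13609 in Ctrl), 0.39 in RPL8B (10661, 11282 and 11887 against 14474, 14836 and 15009), 0.56 in RPL9A (8551, 8334 and 8838 against 12087, 13249.5 and 12488) and 0.50 in RPL22A (6746, 6177 and 6489 against 8779, 9879 and 8893). In RPL22 the copies fell by similar amounts, and the log2 ratio of copy A to copy B was not called (0.11, limma adjusted p = 0.285). For 54 of the 55 called genes the ranges did not overlap, again without a share over all genes. RPL7B, RPL8A, RPL9B and RPL22B were called in each fit that left out 1 library.

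The gene that rose at La EC50 was RPL18B (YNL301C, chrXIV:63570-64562). It had 6639, 5514 and 6279 normalized counts at La EC50, against 5318, 5339 and 4429 in Ctrl, with no overlap, and a log2 change of 0.29 ± 0.09 (adjusted p = 0.0204). The rise of RPL18B was smaller than the other changes named and missed the threshold without La EC50 library 10 (0.23), La EC50 library 12 (0.27) or Ctrl library 3 (0.20). The 5 genes not called at La EC50 were RPL12A (-0.27), RPL15B (-0.09), RPL23B (-0.25), RPL27A (-0.18) and RPL29 (0.04, or -0.0038 with edgeR).

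**Figure D2:**
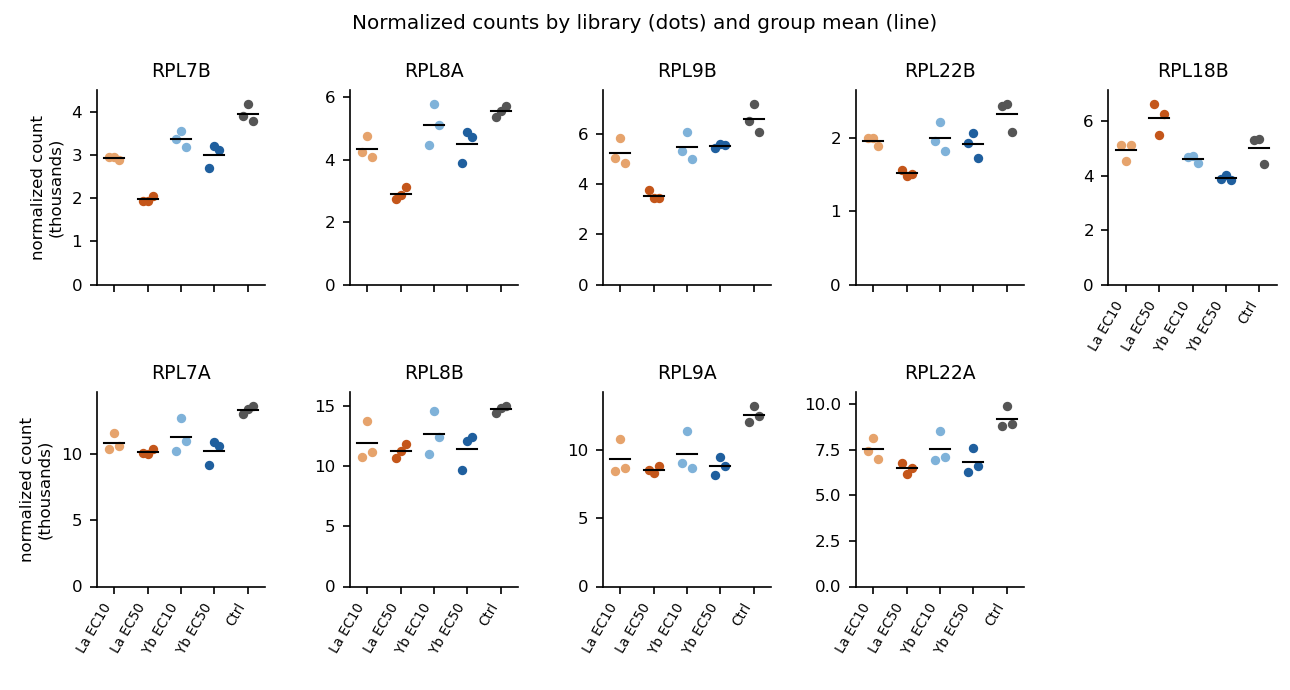
Normalized counts (scaled as the axis label gives) of 4 pairs and of RPL18B in the 15 libraries, with the exposed groups left of Ctrl, a dot for each library and a line for the group mean; axes start at 0. RPL7B, RPL8A, RPL9B and RPL22B (top row) are lowest at La EC50, where RPL18B is highest; the bottom row holds the other copy of the 4 pairs.

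At Yb EC50, 59 genes fell and none rose, where 20.2% of all tested genes were called lower, 20.6% higher and 40.8% in either direction, but with quantile-normalized values 21 were called and genes that had been called, among them RPL2B, RPL3, RPL4A, RPL5, RPL15A, RPL20B and RPL21B, came out at 0.0063 to 0.09. The 4 largest falls were in genes of 180 to 450 coding bases, a range that also holds genes that fell less. RPL29 (YFR032C-A, chrVI:223258-223437), one of the smallest ribosomal proteins and not essential, had 1248, 2128 and 1788 normalized counts at Yb EC50, against 4555, 2679 and 3678 in Ctrl. The libraries spread widely in both groups without overlap, and the log2 change was -1.08 ± 0.27 (adjusted p = 0.00563). RPL27A (YHR010W, chrVIII:126521-127492) had 7334, 9313 and 8442 at Yb EC50, against 16045, 12812 and 13377 in Ctrl, a fall by 0.75 ± 0.17 (adjusted p = 0.00251). RPL33B (YOR234C, chrXV:778555-779405) had 2967, 3521 and 2932 at Yb EC50, against 5418, 5245 and 4205 in Ctrl, a fall by 0.65 ± 0.13 (adjusted p = 0.000941). RPL28 (YGL103W, chrVII:310967-311927), the protein altered in cycloheximide-resistant mutants, had 12350.2, 14609 and 13858 at Yb EC50, against 23413, 20062 and 19997 in Ctrl, a fall by 0.64 ± 0.13 (adjusted p = 0.00105). For all 59 called genes the ranges did not overlap, again without a share over all genes. RPL29, RPL27A, RPL33B and RPL28 were called in each fit that left out 1 library. The gene that was not called was RPL15B (YMR121C, chrXIII:509734-510348), with 476, 446 and 404 at Yb EC50 against 399, 384 and 363 in Ctrl, and a log2 change of 0.21 ± 0.08 (adjusted p = 0.0500). RPL9B had the smallest of the falls, by 0.25, with 5409, 5591 and 5534 at Yb EC50, and lost its call without any 1 of the 3 Yb EC50 libraries, Ctrl library 1 or Ctrl library 2, at -0.19 to -0.26.

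The level of the short genes varied between libraries of the same group as well. RPL29 had 3798, 2309 and 3134 normalized counts at La EC10 and 2219, 4407 and 4742 at Yb EC10, so that libraries of 1 group stood far apart. The median deviation of the 196 tested genes with a coding length under 300 bases, none of the 60 genes among them, from their own means over all libraries (log2) is given beside these values. It was 0.11, -0.10 and 0.01 in the 3 La EC10 libraries, 0.02, 0.02 and 0.12 at La EC50, -0.04, 0.17 and 0.19 at Yb EC10, and -0.16, -0.06 and -0.15 at Yb EC50, against 0.11, -0.18 and -0.07 in Ctrl. Short genes were thus below their mean in all Yb EC50 libraries, in 2 of the 3 Ctrl libraries and in 1 library each at La EC10 and Yb EC10. Across the 60 genes, Pearson's correlation of the log2 change with log2 coding length was 0.51 at Yb EC50, -0.29 at La EC50, -0.09 at La EC10 and -0.15 at Yb EC10, given as a description over genes that share the libraries. The part of library differences in short genes in the changes of RPL29, RPL27A, RPL28 and RPL33B was not tested.

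**Figure D3:**
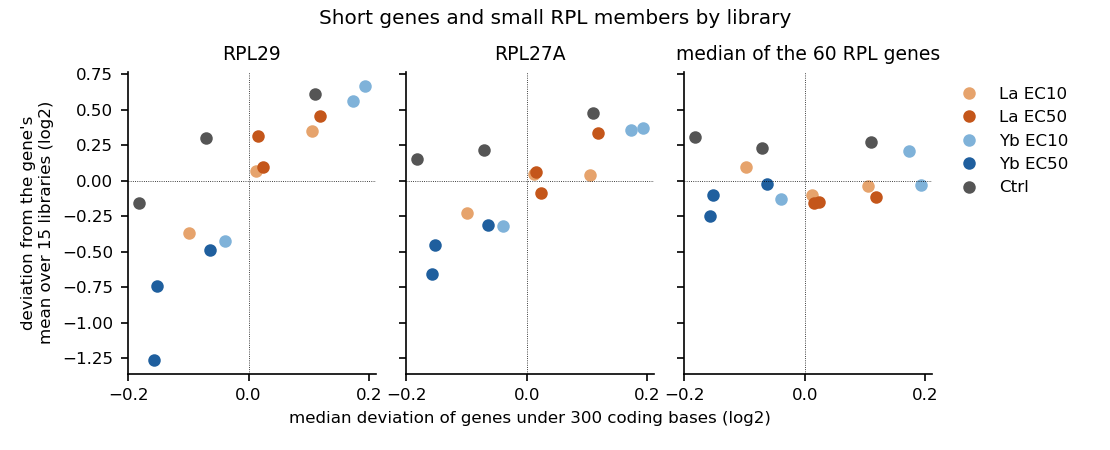
Deviation of RPL29, RPL27A and the median of the 60 RPL genes from their means over 15 libraries (vertical, log2) against the median deviation of the 196 genes under 300 coding bases (horizontal, log2), 1 dot a library. Within groups, RPL29 and RPL27A tend to be lower in libraries where short genes as a whole are lower. Across groups this does not hold throughout, as Ctrl library 2 has the lowest short-gene median (-0.18) with RPL27A at 0.15. The median of all 60 genes is highest in the 3 Ctrl libraries.

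Between the doses of La, 4 genes differed, all lower at La EC50 than at La EC10, where 0.79% of all tested genes were called lower, 0.988% higher and 1.78% in either direction. They were RPL7B (-0.57 ± 0.07, adjusted p = 0.000801), RPL8A (-0.58 ± 0.10, adjusted p = 0.00598), RPL9B (-0.56 ± 0.09, adjusted p = 0.00295) and RPL22B (-0.37 ± 0.09, adjusted p = 0.0365), the same genes that fell most at La EC50 against Ctrl. Both comparisons, and that of the metals at EC50 below, use the same La EC50 libraries, so the recurrence of these genes adds no support. RPL7B, RPL8A and RPL9B were called whichever library was left out, but RPL22B lost its call without any 1 of the 6 La libraries, at -0.36 to -0.40. RPL18B was 0.31 ± 0.09 higher at La EC50 than at La EC10 (adjusted p = 0.0772), with no overlap of the libraries. Between the doses of Yb no gene of the 60 was called by limma, where 1.1% of all tested genes were (0.701% higher, 0.395% lower), 13 had an unadjusted p under 0.05, edgeR called 4 and DESeq2 called 5. The largest of these differences was that of RPL29, -1.1 (95% interval -1.63 to -0.56, adjusted p = 0.0525). Without Yb EC10 library 7, the lowest of its group in RPL29, 8 genes were called.

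The metals were compared at the same effect level, with different doses. At EC10 no gene differed between La and Yb (2 with an unadjusted p under 0.05, 0 by edgeR and 0 by DESeq2), where 5.89% of all tested genes did (1.71% higher, 4.19% lower), and the differences ran from -0.25 to 0.13. At EC50, 3 genes were higher in La than in Yb and 5 lower, where 10.8% of all tested genes were higher, 11.2% lower and 22% either, so the share of the 60 genes that differed was below that of all genes. RPL29 was higher in La by 1.12 ± 0.27, with 3191, 3716 and 4088 normalized counts at La EC50 against 1248, 2128 and 1788 at Yb EC50. RPL18B was higher by 0.65 ± 0.09, with 3867, 4036 and 3842 at Yb EC50, and RPL27A by 0.57 ± 0.17, with 10853, 12024 and 14581 at La EC50. The libraries of these 3 genes did not overlap. RPL9B (-0.64), RPL8A (-0.63), RPL7B (-0.61), RPL22B (-0.33) and RPL15B (-0.30) were lower in La. RPL27A lost its call without La EC50 library 12 (0.46), Yb EC50 library 4 (0.48) or library 6 (0.58), RPL15B without La EC50 library 12 (-0.26) or Yb EC50 library 4 (-0.24), and RPL22B without Yb EC50 library 5 (-0.27). At Yb EC50, RPL7B had 2697, 3221 and 3110.0, RPL8A had 3909, 4884 and 4719.6, and RPL22B had 1929, 2071 and 1733, so that in each the 3 Yb EC50 libraries stood above the 3 La EC50 libraries.

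The dose steps of the metals differed in 3 genes, where 3.25% of all tested genes did (2.01% higher, 1.24% lower). The step at La less the step at Yb was -0.58 ± 0.12 in RPL9B (adjusted p = 0.0321), 0.55 ± 0.12 in RPL18B (adjusted p = 0.0346) and -0.40 ± 0.10 in RPL7B (adjusted p = 0.0471). These calls were near the threshold: none was called without La EC50 library 12, Yb EC10 library 9 or Yb EC50 library 6, and 7 were called without Yb EC10 library 7. At Yb EC10, RPL7B had 3382, 3562 and 3196 normalized counts and RPL18B had 4705, 4717 and 4470.2. RPL29, with the largest difference of steps, 1.37 ± 0.38, had an adjusted p of 0.0592.

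The balance of the copies within a pair was also followed as log2 of copy A over copy B in each library, and tested among 324 pairs of genes whose proteins are each other's best match. In Ctrl, copy A was higher in 14 pairs and copy B in 12, the median difference between copies was 1.94-fold, and the range ran from 1.04-fold in RPL20 to 52.5-fold in RPL15. In no pair did the higher copy of Ctrl become the lower one in the mean of an exposed group. At La EC50 the ratio changed in 7 of 26 pairs, a share of 26.9%, against 39.8% of the 324 pairs. It changed in 1 at La EC10 (29.3% of the 324), in none at Yb EC10 (2 with an unadjusted p under 0.05, and 1 pair with a trend on the mean level; 38.9%), and in 4 at Yb EC50 (52.8%). In each of these comparisons the share of RPL pairs called was below that of all pairs.

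In RPL7 the share of copy A was 83.7% ± 0.185 at La EC50, against 77.1% ± 0.979 in Ctrl (SD, n = 3 each), a log2 change of the ratio of 0.61 ± 0.07 (adjusted p = 1.68e-05). In RPL8 copy A made up 20.5% ± 0.239 at La EC50, against 27.3% ± 0.243 in Ctrl, a change of -0.54 ± 0.05, and in RPL9 it made up 70.8% ± 1.28, against 65.8% ± 1.36, a change of 0.34 ± 0.07. These 3 changes were called in each fit that left out 1 library. RPL15 (-0.41), RPL1 (0.22) and RPL4 (0.14) were also called, and without La EC50 library 11 or Ctrl library 2 the count was 4, with these 3 lost. RPL15 and RPL4 were also lost without La EC50 library 10 (-0.38 and 0.13) or Ctrl library 3 (-0.38 and 0.14), and RPL1 without La EC50 library 12 (0.17). The copies of RPL1, RPL4 and RPL7 share many stretches of 50 bases (81.0%, 72.7% and 56.9%), so their ratios are uncertain.

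RPL15 was the pair with the most unequal copies and the pair whose ratio was called at La EC10, La EC50 and Yb EC50. RPL15B, the lowest of the 60 genes, had 458, 399 and 396 normalized counts at La EC10, 371, 367 and 338 at La EC50, 373, 419 and 406 at Yb EC10 and 476, 446 and 404 at Yb EC50, against 399, 384 and 363 in Ctrl. RPL15A had 15169, 18267 and 15826 at La EC10, 13875, 14182 and 14330.2 at La EC50, 15403, 19519 and 16328 at Yb EC10 and 14335, 16185 and 16393 at Yb EC50, against 19619, 20709 and 19896 in Ctrl. RPL15A was thus below Ctrl in every exposed library while RPL15B was not, and the ratio fell by 0.42 ± 0.13 at La EC10, 0.41 ± 0.13 at La EC50 and 0.57 ± 0.13 at Yb EC50. The call at La EC10 was lost without La EC10 library 13 (-0.30), library 15 (-0.43), Ctrl library 2 (-0.40) or library 3 (-0.39). At Yb EC50 the ratio also changed in RPL33 (0.27 ± 0.08, lost without Yb EC50 library 6 or Ctrl library 1, both at 0.23), RPL9 (-0.26 ± 0.07) and RPL21 (-0.22 ± 0.05).

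The ratio of RPL9 moved up at La EC50 and down at Yb EC50, and between La EC50 and Yb EC50 it differed by 0.60 ± 0.07 (adjusted p = 3.1e-05). Between the metals at EC50, 10 pairs differed in ratio (45.1% of the 324 did), among them RPL8 (-0.62 ± 0.05), RPL7 (0.60 ± 0.07) and RPL9. RPL27 (0.52), RPL21 (0.29), RPL22 (0.26), RPL14 (0.22), RPL1 (0.22) and RPL26 (-0.18) were also called. RPL7, RPL8, RPL9, RPL14 and RPL21 were called whichever library was left out. The ratios of RPL1, RPL7 and RPL14, pairs with many shared stretches, are uncertain here too. RPL22 lost its call without Yb EC50 library 4 (0.19), RPL27 without La EC50 library 11 or 12 or Yb EC50 library 4 or 6 (0.45 to 0.53), RPL1 without La EC50 library 11 or 12 or Yb EC50 library 5 or 6 (0.16 to 0.22), and RPL26 without La EC50 library 11 or 12 or any 1 Yb EC50 library (-0.19 to -0.14).

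**Figure D4:**
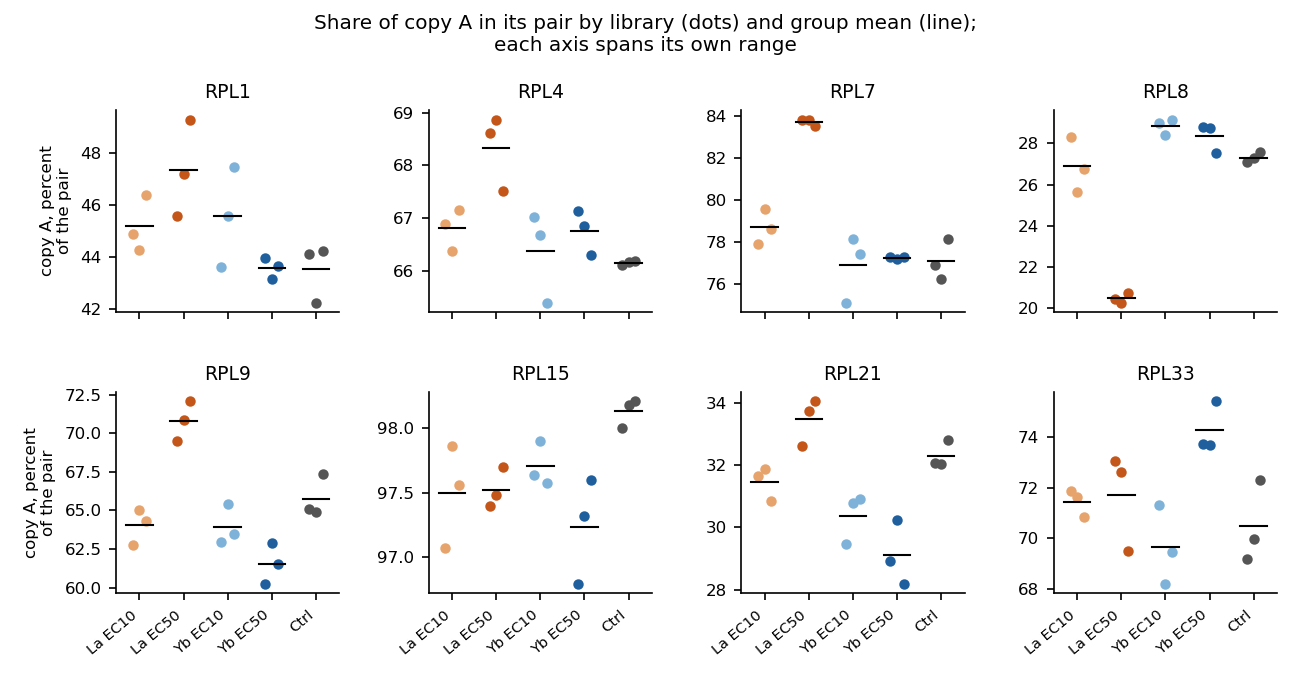
Share of copy A in the sum of both copies (percent, each axis over its own range) in the 15 libraries for 8 pairs whose ratio was called in an exposure, with exposed groups left of Ctrl, a dot for each library and a line for the group mean. RPL7 and RPL9 stand highest and RPL8 lowest at La EC50, where no library overlaps Ctrl.

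The 8 genes without a second copy include proteins central to the subunit. RPL3 (YOR063W, chrXV:444686-445849), which reaches to the peptidyl transferase centre, had 32124, 41130.2 and 31732 normalized counts at La EC10, 28783, 31474 and 29600.0 at La EC50, 31688, 38434 and 31988 at Yb EC10 and 30179, 34350.2 and 36219.6 at Yb EC50, against 39131, 44716 and 43544 in Ctrl. It fell at La EC50 by 0.50 ± 0.12 and at Yb EC50 by 0.34 ± 0.12, and at each EC50 dose all exposed libraries lay below Ctrl; with quantile-normalized values it was 0.06 at Yb EC50, and the call there was lost without Yb EC50 library 4 (-0.27) or 5 (-0.36) or Ctrl library 2 (-0.30) or 3 (-0.32). RPL5 (YPL131W, chrXVI:303121-304014), which carries the smallest ribosomal RNA, had 15749, 19593 and 15909.8 at La EC10, 15714, 16934 and 16965 at La EC50, 16466, 20444 and 17639.7 at Yb EC10 and 14766, 18217 and 18193 at Yb EC50, against 20396, 21302 and 22447 in Ctrl. It was the only 1 of the 8 called at La EC10 (-0.33, adjusted p = 0.0462), and it lost that call when any of 11 libraries was left out, among them La EC10 library 13 or 15 (both -0.28). RPL10 (YLR075W, chrXII:282927-283592), which joins the subunit last in the cytoplasm, had 26438, 30073 and 27972 at La EC10, 24994, 27282 and 28860.5 at La EC50, 26128, 34225 and 32386 at Yb EC10 and 22305, 26486 and 27715 at Yb EC50, against 35548, 33792 and 34029 in Ctrl. Of the exposed libraries only Yb EC10 library 8 reached the Ctrl range.

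RPL25 (YOL127W, chrXV:80348-81190), which lies at the exit of the peptide tunnel, had 16777, 17744 and 15266 at La EC10, 15763, 15065 and 16745 at La EC50, 14474, 19877 and 16505 at Yb EC10 and 13018, 16266 and 14254 at Yb EC50, against 21678, 19807 and 19283 in Ctrl. RPL30 (YGL030W, chrVII:439091-439638), which represses the splicing of its own transcript, had 15815, 14986 and 14624 at La EC10, 14618, 13359.8 and 14475 at La EC50, 13773, 18274 and 15033 at Yb EC10 and 12616, 14981 and 12622 at Yb EC50, against 19734, 18046 and 17387 in Ctrl. RPL32 (YBL092W, chrII:45978-46370) had 16618, 17455 and 14825 at La EC10, 15480.0, 15186 and 15848 at La EC50, 13922, 19508 and 16099 at Yb EC10 and 12911, 15504 and 14271 at Yb EC50, against 20771, 19719 and 18736 in Ctrl. In all 3 genes the Ctrl libraries stood above every exposed library except Yb EC10 library 8. RPL10, RPL25, RPL30 and RPL32 fell at both EC50 doses, by 0.35, 0.35, 0.38 and 0.35 at La EC50 and by 0.44, 0.49, 0.46 and 0.48 at Yb EC50. At La EC50 these falls were near the threshold, and RPL10, RPL25, RPL30 and RPL32 lost their calls without La EC50 library 11 (-0.36, -0.32, -0.34 and -0.33) or Ctrl library 1 (-0.33, -0.30, -0.33 and -0.31), as some did without other libraries. RPL28 had 16201, 16472 and 16856 at La EC10, 14749, 15557 and 18748 at La EC50 and 15148, 21812 and 19203 at Yb EC10, with the Yb EC50 and Ctrl values above. All its La libraries lay below Ctrl, while Yb EC10 library 8 lay within the Ctrl range. It fell by 0.38 at La EC50 (adjusted p = 0.0376), a call lost without La EC50 library 10 (-0.30) or 11 (-0.34) or any 1 Ctrl library (-0.30 to -0.41), and by 0.64 at Yb EC50.

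Per kilobase of coding length, the highest level in Ctrl was that of RPL30, with 57827 ± 3807 normalized counts per kb, above RPL10 with 51736 ± 1431 and RPL32 with 50233 ± 2589 (SD, n = 3 each). Past the step from RPL30 to RPL10, the genes at ranks 2 to 12 each overlapped with the next within 1 SD of their means. At the other end RPL15B had 621 ± 30.1 per kb, below RPL4B with 5198 ± 203 and RPL7B with 5389 ± 269, and RPL4B and RPL7B overlapped within 1 SD of their means. RPL4B and RPL7B belong to pairs with many shared stretches, so their levels are uncertain. Of the 7 highest levels per kb, 6 were those of genes without a second copy and 1 that of RPL23B, and RPL5 and RPL29 were not among them. Each copy of a pair was ranked on its own and copies were not summed, so the order is one of genes and not of proteins. In RPL23, for example, the level was split into 42964 per kb in RPL23B and 14917 in RPL23A.

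Of the 60 genes, 39 hold an intron and 21 do not, and RPL7A and RPL7B hold a pair of introns each, 1 of them with a small nucleolar RNA inside (SNR39 and SNR59). The hexamer GTATGT opens 33 of the 41 introns (80.5%), against 73.0% of 281 introns in the annotation. RPL30, which folds back on its 5′ splice site when its protein binds, has another hexamer, as does RPL22B. The hexamer of RPL22B, GTACGT, is not rare: it opens 12.2% of the 41 introns and 9.25% of the 281. RPL20A and RPL22A are among the other genes that depart from GTATGT. The first 30 bases of the introns of RPL22B (chrVI:64600-64920, minus strand) and RPL30 (chrVII:439094-439323, plus strand) are given, with the hexamer in capitals, because both depart from the common hexamer.
RPL22B: GTACGTtaattttcgttcctatgtcacaat
RPL30: GTCAGTataacatgattttataactatttc

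The median change at La EC50 was -0.39 for genes with an intron and -0.45 for those without, and at Yb EC50 -0.40 and -0.38. The letters ACCCNTACA, the core of the Rap1 site, were searched on both strands of the 500 bases before the start codon and were found in 14 of 60 genes (23.3%), against 1.83% of 5896 genes and 21.4% of the 56 small-subunit genes. The matches lay 218 to 470 bases before the start codon, with a median of 342.5. The median change of the genes with the match was -0.42 at La EC50 and -0.39 at Yb EC50, and that of the genes without it -0.39 and -0.40. The stress response element AGGGG was found in 28.3% of the 60 genes against 34.4% of all, the PAC element GATGAG in 21.7% against 27.9%, and the Abf1 site in 8.33% against 18.1%; the motifs do not contain each other. RPL7B, RPL8A, RPL9B and RPL18B held none of the 4 in this window, which says only that these letters are not there. The same held for the copies RPL7A and RPL9A and for many others of the 60 genes, so it does not set these genes apart. RPL22B held the Rap1 core. The match with 10 bases on each side is shown for 3 of the genes named above, with the motif in capitals, from chrVI:65159-65187 (minus strand) before RPL22B, chrVII:649126-649154 (minus strand) before RPL11B and chrIV:308196-308224 (plus strand) before RPL13A.
RPL22B: ccatgtcaacACCCGTACAtattcagaga
RPL11B: tacaacgagaACCCATACAttactttttt
RPL13A: ttaatatgtgACCCATACAtttcctgtta

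Other genes of the ribosome and its control were set beside the 60 genes. Of the 21 other large-subunit genes, 5 fell at La EC10, 15 at La EC50, 4 at Yb EC10 and 19 at Yb EC50, with medians of -0.26, -0.36, -0.23 and -0.43. Called at Yb EC50 with the largest falls were RPL41A (-0.89), RPL39 (-0.89) and RPL42B (-0.87). RPL41A spread widely, with 10140 ± 2568 normalized counts at Yb EC50 against 19104 ± 6038 in Ctrl (SD, n = 3 each). At La EC50 RPL41A had 25244 ± 4410, above the Ctrl mean. The share of these 21 genes called was 23.8% (La EC10), 71.4% (La EC50), 19% (Yb EC10) and 90.5% (Yb EC50), all lower, where 10.1%, 13%, 14% and 20.2% of all tested genes were called lower. Of the 56 small-subunit genes, 31, 40, 20 and 55 fell in the same order (55.4%, 71.4%, 35.7% and 98.2%), with medians of -0.30, -0.38, -0.22 and -0.45, led by RPS11B (-0.55) at La EC50 and RPS18B (-1.0) at Yb EC50. None of these genes rose in any exposure. Of the 34 genes of the mitochondrial large subunit, whose ribosome is a separate one, 1, 1, 2 and 4 rose and 3 fell, all 3 at Yb EC50. The share called in either direction was 2.94%, 2.94%, 5.88% and 20.6%, against 20.3%, 25.6%, 29.3% and 40.8% of all tested genes, so calls were rarer in this list than over all genes. MRPL1 rose by 0.25 (La EC50), 0.37 (Yb EC10) and 0.38 (Yb EC50).

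**Figure D5:**
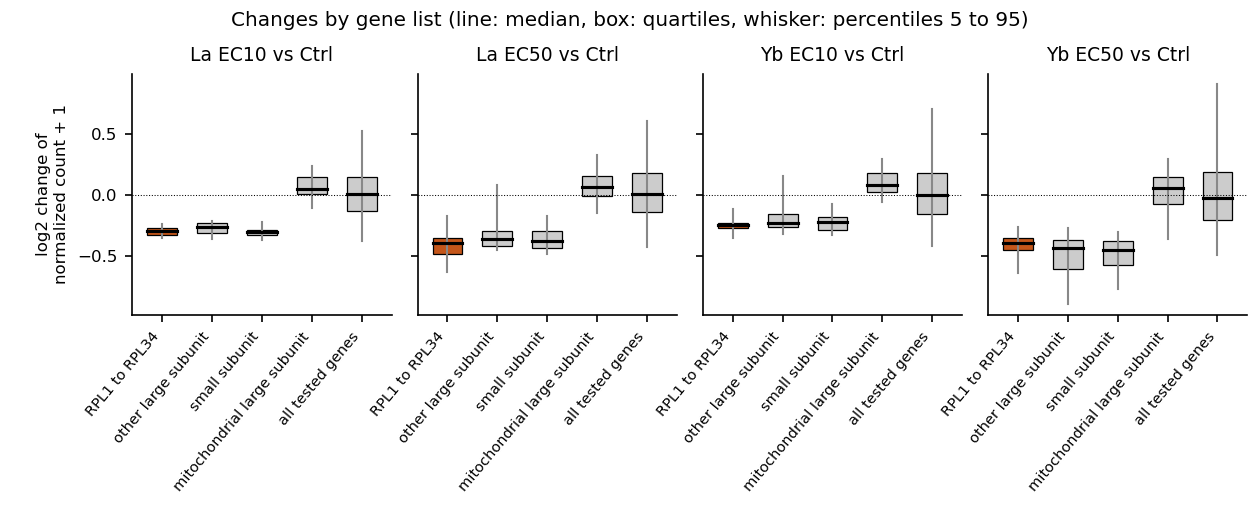
Log2 change of the normalized count (plus 1) against Ctrl in each exposure for the 60 RPL genes (orange), the 21 other large-subunit genes, the 56 small-subunit genes, the 34 mitochondrial large-subunit genes and all 5567 tested genes; line median, box quartiles, whiskers percentiles 5 to 95. The cytosolic lists have medians between -0.22 and -0.45, and the mitochondrial list and all genes lie near 0.

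Of 18 genes for regulators of ribosomal protein transcription, 4 fell at La EC10, 8 at La EC50, 7 at Yb EC10 and 6 at Yb EC50, and 1 rose at Yb EC50 (STB3, a repressor, by 0.25). The share called in either direction was 22.2%, 44.4%, 38.9% and 38.9%, against 20.3%, 25.6%, 29.3% and 40.8% of all tested genes, so at La EC10 and Yb EC50 it was near that of all genes. HMO1 fell most at La EC50, with 1094 ± 6.54 normalized counts against 1923 ± 68.2 in Ctrl (SD, n = 3 each), a log2 change of -0.81 ± 0.06. At Yb EC50 it fell by 0.19, and between La EC50 and Yb EC50 it differed by -0.62 ± 0.06 (adjusted p = 3.84e-06). IFH1, the coactivator of these genes, fell at La EC10 (-0.33), La EC50 (-0.58) and Yb EC10 (-0.56). At Yb EC50 its change of -0.26 just missed the threshold (limma adjusted p = 0.0514). DOT6, a repressor of ribosome biogenesis genes, was called at La EC50 only (-0.51), and TOD6, its relative, at La EC50 (-0.42) and Yb EC10 (-0.51). CBF1 fell in all exposures, most at Yb EC50 (-0.43), and the kinase SCH9 at La EC10 (-0.21) and Yb EC50 (-0.25). RAP1 fell by 0.36 at La EC50, 0.19 at Yb EC10 and 0.24 at Yb EC50. In the same order FHL1 fell by 0.19, 0.21 and 0.22 and REB1 by 0.23, 0.18 and 0.19. The call of FHL1 at La EC50 was near the threshold (limma adjusted p = 0.0492). Of 8 genes for proteins that escort single large-subunit proteins or the new subunit, 6, 5, 8 and 6 fell and none rose (75%, 62.5%, 100% and 75% of the list). ARX1, an export factor of the subunit, fell in all exposures, by 0.42 (La EC10), 0.57 (La EC50), 0.57 (Yb EC10) and 0.39 (Yb EC50). BCP1, the escort of RPL23, was also called lower in all exposures, most at Yb EC50 (-0.63), and so was ALB1. SYO1, the escort of RPL5 and RPL11, fell by 0.51 at La EC50 and 0.53 at Yb EC10. ACL4, the escort of RPL4, fell by 0.40 at La EC10, 0.33 at Yb EC10 and 0.33 at Yb EC50.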

How the data were processed

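Total RNA of 15 yeast libraries was sequenced, per the labels. Gene counts were deposited as a signal: counts that the authors had divided by 1 size factor per library. Per the submitters' processing notes the tools were FastQC 0.67, TopHat2 2.1.1, HTSeq 0.6.1p1 and DESeq2 1.14.1 with build R64; the sources used here give neither the strand setting nor the handling of reads from near-identical copies. Whole reads were recovered for 100% of values within a tolerance of 0.01. Genes averaging at least 10 normalized counts (5567) were fitted with limma 3.58.1 in R 4.3.3 on log2(value + 1), with 1 coefficient a group over all 15 libraries, a trend on the mean level and Benjamini-Hochberg adjustment over all tested genes; a call is an adjusted p under 0.05. An exact permutation test of 3 against 3 cannot go below 0.10. On the recovered reads edgeR 4.0.16 called 1152 (La EC10), 1437 (La EC50), 1603 (Yb EC10) and 2306 (Yb EC50) genes against Ctrl, and DESeq2 1.42.0 called 1081, 1331, 1524 and 2108 in that order. Copy ratios were fitted with limma without that trend over 324 pairs of best matches (blastp 2.17.0, at least 50% identity over 80% of the longer protein). Proteins were translated from the R64 genome and annotation, and upstream sequence was read from that genome; testing the ratios on these proteins was chosen after the files were seen. Members and lists were chosen with earlier results of these data known. Values by library are given, in the groups where a result is described, for genes chosen among the 4 called genes with the largest falls per exposure, those that rose or lay nearest to 0, genes without a second copy, the highest and lowest mean, called dose-step differences and up to 6 pairs with the largest called ratios; of other lists up to 3 called genes with the largest change were eligible. Libraries carry the running numbers of the deposited columns. A gene of the set and the results that need it are not reported here. The fits were tested on simulated data. Alternatives were other scalings, filters, pseudocounts, tools, summed copies and leaving out each library.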

Additional observations from a re-analysis of the deposited data

Results flagged for a closer look

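The dose step (EC50 less EC10) differed between La and Yb in RPL9B, RPL18B and RPL7B by a test of the difference itself (limma). The step at La less the step at Yb was -0.58 in RPL9B, 0.55 in RPL18B and -0.40 in RPL7B. In RPL9B the step was -0.56 at La, with 3752, 3432 and 3426 normalized counts at La EC50 against 5020.2, 5839 and 4847 at La EC10, whereas at Yb the libraries had 5409, 5591 and 5534 at EC50 against 5319.7, 6043 and 5003 at EC10. RPL18B was 0.31 higher at La EC50 than at La EC10 and lower at Yb EC50 than at Yb EC10 (-0.24), neither of which was called alone. The call of RPL9B, RPL18B or RPL7B depended on single libraries: without Yb EC10 library 9, Yb EC50 library 6 or La EC50 library 12 no gene of the 60 was called.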

How the results depend on the processing

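Of 5354 recomputed values of named genes, 4633 kept direction and side of the threshold, 672 lost the call, 30 gained it and 19 changed sign. With equal totals 20 genes were called at La EC10, 47 at La EC50 (46 lower, 1 higher), 7 at Yb EC10 and 44 at Yb EC50 (43 lower, 1 higher). The Yb dose step then called 1, and the medians were -0.29 at La EC50 and -0.26 at Yb EC50. With quantile normalization 9 (La EC10), 26 (La EC50), 7 (Yb EC10) and 21 (Yb EC50) were called, with medians of -0.13, -0.19, -0.10 and -0.12; 1 was called in the Yb step, 13 between the metals at EC50, 5 in the difference of steps and 29 by the F test. With copies summed, which leaves 34 proteins, the counts were 19, 31, 10 and 34, with 0 in the La step, 2 between the metals at EC50, 0 in the difference of steps and 33 by the F test. Fitting the compared groups only gave 5 at Yb EC10. The Yb step had 4 calls with edgeR and 5 with DESeq2, and DESeq2 called 5 in the difference of steps. A trend on the mean level gave 1 copy ratio at Yb EC10. Signs changed for RPL18B at La EC10 (0.051 with equal totals, 0.080 with quantiles), RPL29 at La EC50 (-0.0038 with edgeR), RPL10 at Yb EC10 (0.021) and, at Yb EC50 with quantiles, RPL4A (0.0063), RPL2B (0.058), RPL15A (0.056), RPL3 (0.062), RPL20B (0.049), RPL21B (0.041) and RPL5 (0.092). The cause was not tested. Leaving out each library gave 3 to 47 calls (La EC10; 18 without Ctrl library 3), 42 to 56 (La EC50), 2 to 51 (Yb EC10; 17 without Ctrl library 1 or 3), 47 to 60 (Yb EC50), 3 to 5 in the La step, 0 to 8 in the Yb step, 6 to 8 between the metals at EC50, 0 to 7 in the difference of steps and 30 to 60 by the F test; copy ratios gave 0 to 2 (La EC10), 4 to 7 (La EC50), 0 to 1 (Yb EC10), 3 to 5 (Yb EC50) and, between the metals at EC50, 7 to 11. The changes of sign when a library was left out were in RPL18B at La EC10 (0.0355, 0.0204 and 0.0233 without La EC10 library 14, Ctrl library 1 and Ctrl library 2), RPL29 at La EC50 (-0.0455 and -0.17 without La EC50 library 12 and Ctrl library 2) and RPL29 at Yb EC10 (-0.13, -0.18 and -0.19 without Yb EC10 library 8, library 9 and Ctrl library 2), all of them changes that were not called. Difference of steps: 1 call without La EC10 library 14 or 15, La EC50 library 11, Yb EC10 library 8 or Yb EC50 library 4, and 7 without Yb EC10 library 7. No paired analysis was possible because the columns carry no replicate number.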
